A study of Drosophila melanogaster with 8 samples.

Results

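The genes described here are those of sugar carriage and trehalose turnover in the midgut of old female flies, measured with and without quercetin (Que) in the food. They are the trehalose carrier Tret1-1 and its paralog Tret1-2, the predicted sugar carriers sut1, sut2, sut3 and sut4, the glucose carrier Glut1, the trehalose-cleaving enzyme Treh and the trehalose-making enzyme Tps1. They were taken by name from the deposited table, and all 9 were present among its 19299 features. All flies were wild type (WT) females, 40 to 50 days old per the sample labels, and each sample was a pool of dissected midguts. In 4 samples the food held 10 µM Que, and in the other 4 it held only DMSO, the solvent of Que. Levels are given as RPKM, which divides a gene's reads by its length and by the sample's total of assigned reads. No sequences of these genes were used here.

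Trehalose, a sugar built of glucose units, is the main sugar of insect blood, the hemolymph. It is made chiefly in the fat body, where Tps1 builds its phosphorylated precursor, and it leaves and enters cells through facilitative carriers such as Tret1-1. Treh splits it back into glucose, and is known in secreted and intracellular forms. Enterocytes, the absorptive cells of the gut, take up glucose and other simple sugars released from food by maltases and amylases, and pass them on through carriers of the major facilitator superfamily, to which the Tret1, sut and Glut genes belong.

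Between 27253832 reads (Que 3) and 35619139 reads (DMSO 2) were assigned to genes per sample. The markers matched a midgut. The summed level of 6 enterocyte markers was 5699 to 7932 RPKM with DMSO and 7153 to 9275 RPKM with Que. Que 1, Que 3 and Que 4 lay above every DMSO sample in this sum. Of the 6 markers, 1 had an unadjusted p under 0.05 (limma, described below), as did 3.62% of all genes tested. The 4 progenitor markers summed to 48.5 to 55.0 RPKM and 37.3 to 57.5 RPKM, and 7 enteroendocrine markers to 918 to 1242 RPKM and 945 to 1435 RPKM. The 5 visceral muscle markers, of the muscle layer dissected with the gut, summed to 509 to 767 RPKM with DMSO and 504 to 840 RPKM with Que. Markers of the other tissues examined were low. The 5 fat body markers summed to 1.20 to 1.92 RPKM with DMSO and 0.845 to 1.53 RPKM with Que, the 5 hemocyte markers to 0.169 to 0.231 RPKM and 0.126 to 0.272 RPKM, the 4 Malpighian tubule markers to 2.15 to 8.17 RPKM and 0.802 to 4.81 RPKM, and the 3 ovary markers to 1.04 to 4.14 RPKM and 0.554 to 1.27 RPKM. No marker had 0 reads in all 8 samples. As these are whole midguts, fewer cells of a type and less RNA per cell cannot be told apart. The labels do not say whether the 4 samples of a group came from separate cultures, so p-values measure only the spread between these samples.

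Que and DMSO midguts did not differ detectably in any of these genes. Of the 9 genes, 8 averaged 0.1 RPKM or more and were compared as log2(RPKM + 0.1) with limma, a linear model fitted across all 13249 genes past that level. Among the 8, 0 had an adjusted p under 0.05 (limma, Benjamini-Hochberg adjustment over all genes tested), as was the case for 0% of all genes tested. An unadjusted p under 0.05 was likewise reached by 0 of the 8, against 3.62% of all genes (479 genes). In 0 of the 8 did the Que and DMSO samples not overlap, against 2.14% of all genes. The mean log2 value was higher with Que in 5 genes and lower in 3, with a median log2 fold change of 0.04 beside −0.016 over all genes tested. Voom, limma's method for read counts, run on the reads behind the RPKM values, also left 0 genes past an adjusted p of 0.05, with 170 higher and 196 lower at an unadjusted p under 0.05.

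The genes spanned a wide range of levels. Per kilobase of exon, Treh stood first with a mean of 121 RPKM over the 8 samples, above 93.9% of the genes tested, followed by Tret1-1 with 11.9, sut1 with 4.64, sut2 with 4.45, Glut1 with 0.901, Tps1 with 0.893, sut3 with 0.848, Tret1-2 with 0.216 and sut4 with 0.0314 RPKM. Neighbours in this order were compared within each sample as differences of log2(RPKM + 0.1), with an exact two-sided sign-flip test over the 8 samples and adjustment over the 8 pairs. Treh exceeded Tret1-1, Tret1-1 exceeded sut1, sut2 exceeded Glut1, sut3 exceeded Tret1-2 and Tret1-2 exceeded sut4 in all 8 samples. Each of these 5 pairs had an adjusted p of 0.0125, from the smallest p that 8 samples allow. The order was taken from the same 8 samples, so the direction of each pair was given beforehand. The p-values describe only how steady it was across these samples. For Tret1-2 and sut4 the size of the difference, 1.18 on the log2 scale, depended on the pseudocount and was 2.43 with 0.01. The order of sut1 and sut2 (higher in 6 of 8 samples, adjusted exact p = 0.542), of Glut1 and Tps1 (5 of 8, adjusted exact p = 0.67) and of Tps1 and sut3 (4 of 8, adjusted exact p = 1) was within the spread between samples. RPKM divides by all annotated exon bases, 10933 for Glut1 with its 20 RefSeq transcripts, so a gene whose long or alternative exons are little used has a lower value.

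**Figure D1:**
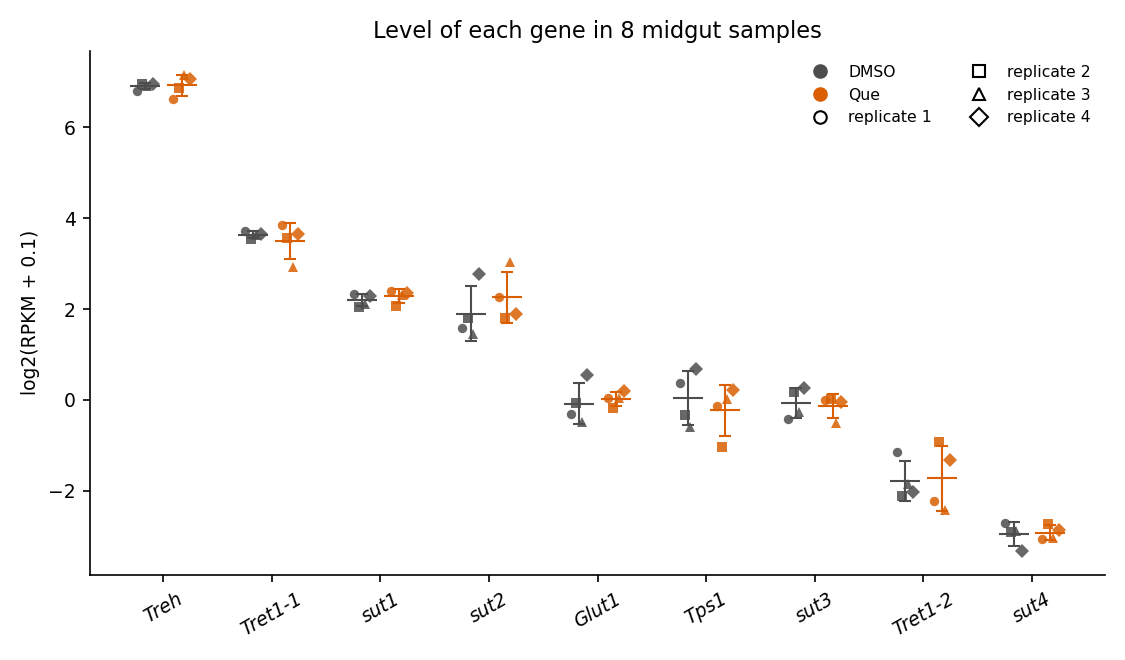
Level of the 9 genes as log2(RPKM + 0.1) (vertical axis) in the 4 DMSO samples (grey) and the 4 Que samples (orange), with the replicate number given by the symbol, the group mean by the horizontal dash and the SD by the bar. The groups overlapped in every gene, and Treh, at 98.7 to 142 RPKM, stood above all others in each sample.

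Treh, the trehalase gene, was the most abundant of the 9 transcripts. Treh (Dmel_CG9364) lies on chromosome 2R from 21074018 to 21088945, in 12 separate exon blocks. It had 112, 124, 121 and 124 RPKM in DMSO 1 to 4, and 98.7, 117, 142 and 134 RPKM in Que 1 to 4. The DMSO samples lay within the range of the Que samples, which held both the lowest (Que 1) and the highest (Que 3) value. The means were 123 ± 19.4 RPKM in Que midguts and 120 ± 5.64 RPKM in DMSO midguts (SD, n = 4 each), and the log2 fold change came to 0.02 (standard error, SE, 0.12, limma adjusted p = 0.986, exact permutation test p = 0.886). The 95% interval ran from −0.25 to 0.29, which corresponds to a fold change between 0.84 and 1.23. With 13559 to 19226 reads per sample, counting alone would give a coefficient of variation of 0.762%, against 4.70% among the DMSO samples and 15.8% among the Que samples. The direction rested on single samples, at −0.054 without Que 3 and 0.12 without Que 1.

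Treh shares its end with another gene. Of its 7 transcripts, 1 runs past 21088386, where its last 560 bases lie opposite the end of Rbpn-5, beyond the last coding base of Treh at 21086951. The library kit kept the strand of the RNA, but whether the counting used it is not given in the sources used here. Rbpn-5 had 1916 to 3128 reads per sample, 11.3% to 16.3% as many as Treh. With this number of reads taken off Treh in each sample, an alternative chosen after the data were seen, the log2 fold change was 0.047 (exact permutation test p = 0.8).

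Of trehalose synthesis, the Tps1 transcript was at a low level. CG5171 and CG5177, both annotated for the step after Tps1, averaged 1.85 and 28.1 RPKM over the 8 samples. Tps1 (Dmel_CG4104, chromosome 2L, 4388327 to 4392778), trehalose-6-phosphate synthase, had 1.20, 0.692, 0.564 and 1.51 RPKM in DMSO 1 to 4, and 0.817, 0.387, 0.917 and 1.06 RPKM in Que 1 to 4. DMSO 4 was highest and Que 2 lowest, and the other 6 samples were interleaved. The log2 fold change was −0.26 (SE 0.36, limma adjusted p = 0.956, exact permutation test p = 0.543), with a 95% interval from −1.08 to 0.56, and it was 0.0048 without Que 2, −0.047 without DMSO 4 and −0.087 when limma weighted the samples by their quality. The values came from 39 to 144 reads per sample. The fat body markers, of which all 5 had a mean under 1 RPKM, summed to 1.92 RPKM in DMSO 4 and 1.498 RPKM in Que 2, the highest and the lowest sample for Tps1. Their part in the spread of Tps1 was not tested.

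In each sample Treh exceeded Tps1 by a large margin. The difference of their log2(RPKM + 0.1) values ranged from 6.27 in DMSO 4 to 7.90 in Que 2. Its mean corresponds to 129-fold with the 0.1 included. The log2 difference averaged 7.16 ± 0.521 with Que and 6.87 ± 0.615 with DMSO (SD, n = 4 each). The groups overlapped, and the difference of 0.29 was within their spread (exact permutation test p = 0.514, adjusted p = 0.6 over the ratios tested). It was 0.038 without Que 2, 0.084 without DMSO 4 and 0.50 without DMSO 3.

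Tret1-1 (Dmel_CG30035, chromosome 2R, 11665768 to 11674782), the facilitative trehalose carrier, was the most abundant carrier among the named genes. It had 13.1, 11.5, 12.3 and 12.6 RPKM in DMSO 1 to 4, and 14.3, 11.8, 7.49 and 12.4 RPKM in Que 1 to 4. Only Que 3 stood apart, below all other samples, from 689 reads against 1325 to 1515 in the others, while Que 1 was the highest of the 8. The means were 11.5 ± 2.87 RPKM in Que midguts and 12.4 ± 0.648 RPKM in DMSO midguts (SD, n = 4 each), and the log2 fold change came to −0.14 (SE 0.18, limma adjusted p = 0.951, exact permutation test p = 0.743). The 95% interval ran from −0.55 to 0.27, and without Que 3 the log2 fold change was 0.047. Across the 8 samples Tret1-1 and Treh had a Pearson's r of −0.76 (n = 8, a description of samples that share depth and dissection). The opposite deviations were largest in Que 1 and Que 3, and r was not computed without them. In DMSO 3, DMSO 4 and Que 4 both genes lay above their means, and in Que 2 both lay below. Que 1 was highest for Tret1-1 and lowest for Treh, and Que 3 the reverse.

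Tret1-2 (Dmel_CG8234, chromosome 2R, 11675935 to 11678014) begins 1152 bases after the end of Tret1-1 on the same strand. It had 0.350, 0.133, 0.177 and 0.144 RPKM in DMSO 1 to 4, and 0.113, 0.428, 0.0866 and 0.299 RPKM in Que 1 to 4. With 4 to 25 reads per sample, counting alone would give a coefficient of variation of 28.7%, and values of 50.4% and 69.8% were seen in the DMSO and Que groups. Que 2 was highest and Que 3 lowest, so the Que samples enclosed the DMSO samples. Its log2 fold change of 0.06 (SE 0.42, limma adjusted p = 0.988) had a 95% interval from −0.88 to 1.0, and it was −0.21 without Que 2, 0.29 without Que 3 and 0.41 with array weights. A change within that interval was not detectable with this spread between samples.

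The paralogs differed strongly in level, and their ratio did not differ detectably between the groups. Tret1-1 exceeded Tret1-2 by 4.49 (Que 2) to 6.08 (Que 1) on the log2(RPKM + 0.1) scale. The mean difference corresponds to 40.0-fold with the 0.1 included. As Tret1-2 had only 0.0866 to 0.428 RPKM, the added 0.1 lowers the ratio. This ratio averaged 5.22 ± 0.671 with Que and 5.43 ± 0.378 with DMSO (SD, n = 4 each). The difference of −0.20 was within the spread (exact permutation test p = 0.6, adjusted p = 0.6), and was 0.041 without Que 2. How reads that match both paralogs were counted is not given in the sources used here.

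The genes sut1, sut2 and sut3 stand head to tail on chromosome 2R, from 8082976 to 8091297, with 244 bases between sut1 and sut2 and 184 bases between sut2 and sut3. sut1 and sut2 had like levels, above that of sut3, while sut2 varied more between samples than sut1. sut1 (Dmel_CG8714) had 4.92, 4.05, 4.22 and 4.80 RPKM in DMSO 1 to 4, and 5.17, 4.09, 4.87 and 5.04 RPKM in Que 1 to 4. It varied least of the carriers, by 1.28-fold from the lowest to the highest sample, with 2 Que samples above every DMSO sample. Its log2 fold change was 0.09 (SE 0.12, limma adjusted p = 0.956, exact permutation test p = 0.343), with a 95% interval from −0.19 to 0.37, and was 0.040 without DMSO 2 and 0.16 without Que 2. It shares 183 exon bases with slv, a gene of 1464 bases on the opposite strand. slv had 102 to 170 reads per sample beside 320 to 400 of sut1. The value of sut1 is uncertain only by those reads that fall in the shared bases, which were not counted apart.

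sut2 (Dmel_CG17975) had the largest log2 fold change of the 8 genes in either direction, though not one past the test. It had 2.90, 3.37, 2.63 and 6.78 RPKM in DMSO 1 to 4, and 4.75, 3.39, 8.17 and 3.62 RPKM in Que 1 to 4. Both groups held a single high sample, DMSO 4 and Que 3, about which the other samples lay between 2.63 and 4.75 RPKM. These came from 357 and 358 reads, against 141 to 240 in the other 6. The log2 fold change was 0.35 (SE 0.35, limma adjusted p = 0.946, exact permutation test p = 0.429), with a 95% interval from −0.43 to 1.14. Leaving out Que 3 gave 0.09 and leaving out DMSO 4 gave 0.65, while sample weights gave 0.020. The Malpighian tubule markers, of which 3 of 4 had a mean under 1 RPKM, summed to 8.17 RPKM in DMSO 4 and 3.83 RPKM in Que 3, against 0.802 to 4.81 RPKM in the other samples. Their part in these high values was not tested.

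sut3 (Dmel_CG17976) had 0.652, 1.02, 0.734 and 1.09 RPKM in DMSO 1 to 4, and 0.899, 0.911, 0.599 and 0.874 RPKM in Que 1 to 4. Que 3, the highest sample for sut2, was the lowest for sut3, with 26 reads, and DMSO 4 was the highest. The log2 fold change was −0.072 (SE 0.23, limma adjusted p = 0.978), and it was 0.055 without Que 3. sut4 (Dmel_CG1380), a gene of a single exon on chromosome 2R from 10085442 to 10087127, had 14 reads in all 8 samples together. It had 3, 2, 2 and 0 reads in DMSO 1 to 4, and 1, 3, 1 and 2 reads in Que 1 to 4. No sample exceeded 3 reads, taken as the detection limit, so no fold change is given and a change was not detectable at this depth.

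Glut1 (Dmel_CG43946, chromosome 3L, 914074 to 993788), the fly homolog of the mammalian glucose carrier GLUT1, had 0.703, 0.847, 0.616 and 1.35 RPKM in DMSO 1 to 4, and 0.928, 0.780, 0.936 and 1.05 RPKM in Que 1 to 4. All Que samples lay within the range of the DMSO samples, whose highest was again DMSO 4. The log2 fold change was 0.11 (SE 0.24, limma adjusted p = 0.971, exact permutation test p = 0.657), with a 95% interval from −0.44 to 0.66. It was −0.022 without DMSO 3, 0.32 without DMSO 4 and 0.24 after correction for a per-sample dependence on gene length. The level rested on 225 to 484 reads per sample, spread over 24 exon blocks. A separate feature named by the same locus tag lies within the bounds of Glut1 on the same strand. It has 7369 bases, shares 0 exon bases with Glut1 and had 40 to 56 reads per sample, which are not part of the values given.

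**Figure D2:**
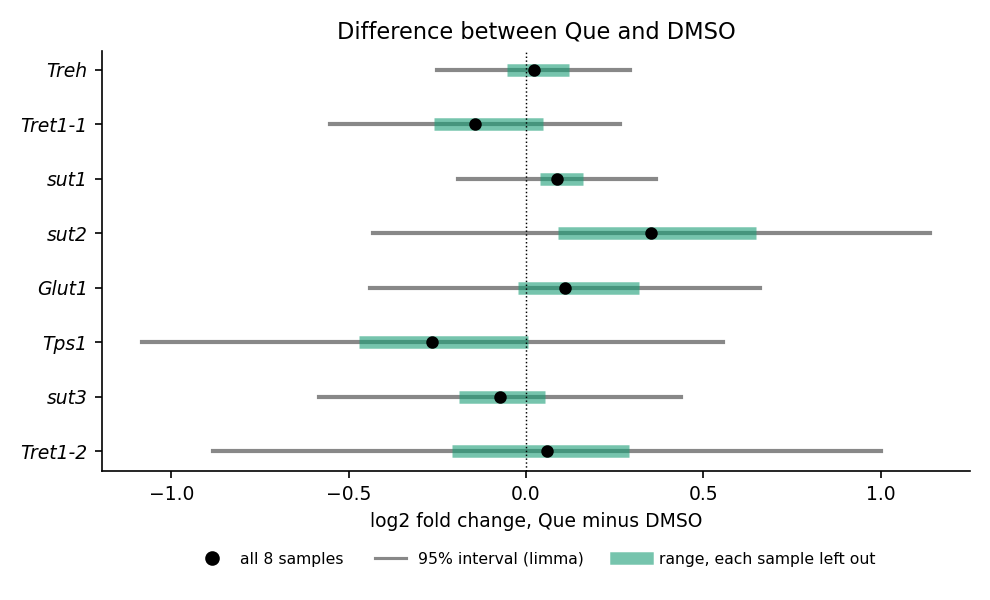
Log2 fold change between Que and DMSO (horizontal axis, positive where Que was higher) of the 8 genes tested. Points give all 8 samples, thin lines the 95% interval of limma and thick bars the range when each sample was left out. Every interval included 0, from the narrowest, Treh with −0.25 to 0.29, to the widest, Tret1-2 with −0.88 to 1.0.

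The spread between samples was shared by some of the genes and not by group. DMSO 4 was the highest sample for Glut1, Tps1 and sut3 and the highest DMSO sample for sut2, with deviations from the gene mean of 0.57, 0.78, 0.35 and 0.70 on the log2 scale. Que 3 was the lowest sample for Tret1-1, sut3 and Tret1-2, at −0.64, −0.42 and −0.67, and the highest for sut2 (0.97) and Treh (0.24). Glut1 deviated together with sut2 (Pearson's r = 0.74) and with Tps1 (r = 0.63), each over 8 samples and as a description. So did sut1 with Tps1 (r = 0.73), while Tret1-2 and sut2 deviated in opposite directions (r = −0.62). These were picked from all pairs of the 8 genes, and r was not computed without DMSO 4. Que 3 was also the sample with the fewest assigned reads.

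**Figure D3:**
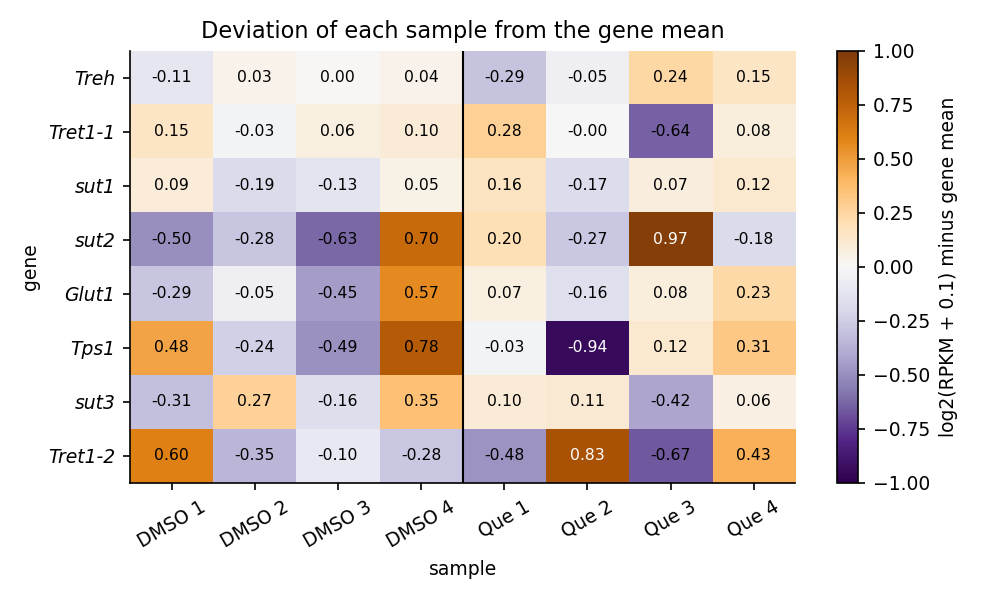
Deviation of each of the 8 samples (columns) from the mean of each gene (rows) in log2(RPKM + 0.1), orange where higher and purple where lower, with the DMSO samples left of the line and the Que samples right of it. The largest deviations, 0.97 for sut2 in Que 3 and −0.94 for Tps1 in Que 2, stood in single samples.

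For Treh and Tret1-1, the most abundant of the genes, the 3 genes with the most similar pattern over the 8 samples were sought among 9150 genes that averaged 1 RPKM or more. For Treh these were IntS1, a subunit of the Integrator complex (Pearson's r = 0.99, Spearman's rho = 1), Mdh2, the mitochondrial malate dehydrogenase (r = 0.98, rho = 0.98), and GluRS-m, a mitochondrial glutamyl-tRNA synthetase (r = 0.98, rho = 0.98). With Que 1 and Que 3, the samples farthest from the median of Treh, left out, r was 0.95, 0.90 and 0.95. For Tret1-1 they were CG7156 (r = 0.97, rho = 0.71), the Mediator subunit MED19 (r = 0.97, rho = 0.88) and g, a subunit of an adaptor complex (r = 0.97, rho = 0.81). Without the same samples r was 0.29, 0.86 and 0.73, so the likeness of CG7156 to Tret1-1 rested on Que 1 and Que 3. These are the highest of 9150 correlations and describe only these 8 samples.

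The named carriers were not the leading carriers of the midgut by RNA level. Of 28 carrier genes in all, the named ones and 21 others, CG6484 stood first with a mean of 416 RPKM over the 8 samples, followed by CG4607 with 93.0, CG1213 with 64.8 and CG10960 with 17.9 RPKM, all of the same superfamily. Tret1-1 ranked 5 among the 28, sut1 8, sut2 9, Glut1 14, sut3 16, Tret1-2 19 and sut4 25.

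**Figure D4:**
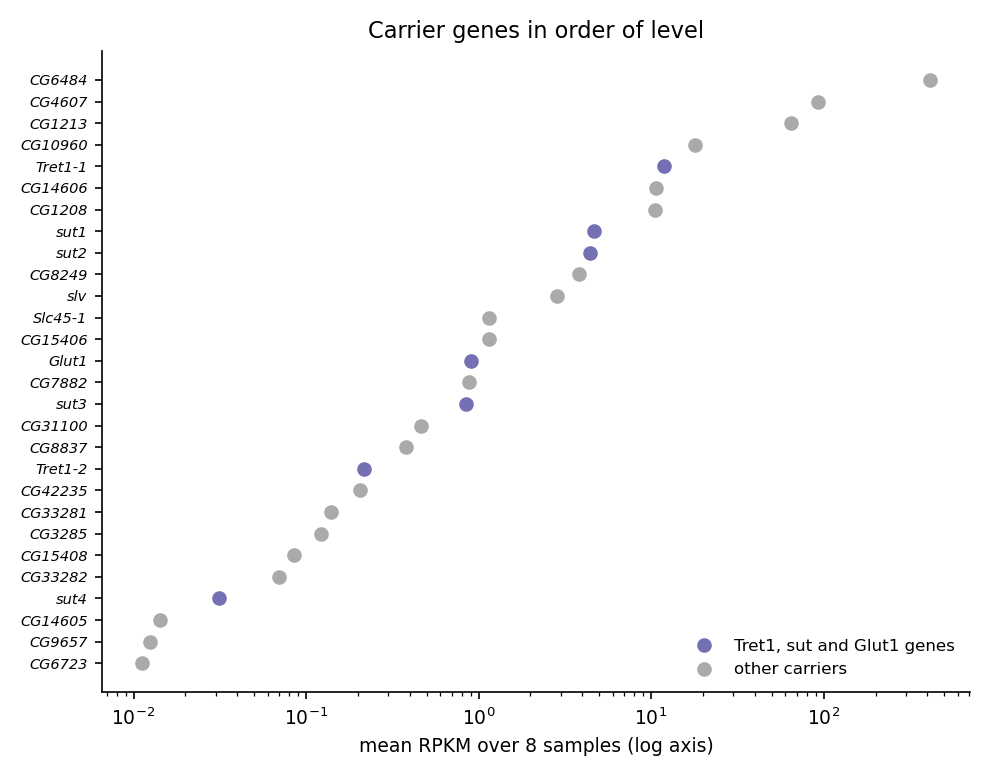
Mean RPKM over the 8 samples (horizontal log axis) of 28 carrier genes in order of level, with the Tret1, sut and Glut1 genes in purple and other carriers in grey. The first 4 places were held by other carriers, with CG6484 at 416 RPKM, and Tret1-1 followed at 11.9 RPKM.

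Among the other carriers, 16 of the 21 present in the table were tested, 7 with a higher and 9 with a lower mean log2 value in Que, and 0 had an unadjusted or adjusted limma p under 0.05. Their median log2 fold change was −0.037. CG6484 had 424 ± 44.4 RPKM in Que midguts and 407 ± 41.0 RPKM in DMSO midguts, and CG4607 had 96.3 ± 9.17 and 89.8 ± 12.7 RPKM (SD, n = 4 each), with log2 fold changes of 0.06 and 0.11 (limma adjusted p = 0.966 and 0.949). That of CG4607 was 0.043 without DMSO 2 and 0.18 without DMSO 4. The groups lay apart in 1 of the 16, Slc45-1, a sucrose carrier, where every Que sample lay above every DMSO sample. Of all genes tested, the groups lay apart in 2.14% in either direction, and in 0.876% with Que higher. Slc45-1 had 1.12, 1.21, 0.904 and 0.535 RPKM in DMSO 1 to 4, and 1.64, 1.35, 1.23 and 1.27 RPKM in Que 1 to 4, from 58 to 171 reads. The gap between the groups was narrow, from 1.21 in DMSO 2 to 1.23 in Que 3. Its log2 fold change was 0.54 (SE 0.25, limma p = 0.0544 and adjusted p = 0.946, exact permutation test p = 0.0286, the smallest that 70 arrangements allow). It was 0.32 without DMSO 4 and 0.30 with a pseudocount of 1. The exact p follows from the groups lying apart, for which Slc45-1 was named, and is no further support.

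The 5 carriers under the filter included CG15408, whose groups also lay apart. It had 6, 12, 8 and 6 reads in DMSO 1 to 4, and 2, 0, 0 and 2 reads in Que 1 to 4. All Que samples were below the detection limit of 3 reads, and without a filter its limma p was 0.00112 and its adjusted p 0.889. It was not counted among the genes tested. Without a filter, 287 of 19299 features were higher and 344 lower at an unadjusted limma p under 0.05. The share of these features whose groups lay apart was not computed.

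Of 11 tested enzymes of trehalose, glycogen and glucose metabolism, 6 had a higher and 5 a lower mean log2 value with Que, with a median log2 fold change of 0.08, and 0 had an unadjusted or adjusted limma p under 0.05. Hex-A, the main hexokinase, which phosphorylates glucose, had 245 ± 33.0 RPKM in Que midguts and 277 ± 27.7 RPKM in DMSO midguts (SD, n = 4 each), and the log2 fold change came to −0.18 (limma adjusted p = 0.946). tobi, an alpha-glucosidase known as a target of insulin signaling, had 226 ± 41.7 and 200.1 ± 31.7 RPKM (log2 fold change 0.17, limma adjusted p = 0.946), and its log2 fold change was 0.074 without DMSO 3, 0.090 without Que 4 and 0.29 without Que 3. In 1 of the 11, CG5171, annotated as a trehalose phosphatase, the step after Tps1, the Que samples lay above all DMSO samples. Of all genes tested, the groups lay apart in 2.14% in either direction, and in 0.876% with Que higher. CG5171 had 1.80, 1.75, 1.56 and 1.84 RPKM in DMSO 1 to 4, and 1.99, 1.93, 1.99 and 1.97 RPKM in Que 1 to 4. The difference was small, a log2 fold change of 0.18 (SE 0.13, limma p = 0.197 and adjusted p = 0.946, exact permutation test p = 0.0286), and rested on 90 to 115 reads per sample. Here too the exact p follows from the groups lying apart, for which CG5171 was named, and is no further support. CG5177, annotated for the same step as CG5171, had 30.4 ± 8.22 and 25.7 ± 4.41 RPKM in Que and DMSO midguts (SD, n = 4 each), with overlapping groups.

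Of 6 tested genes of sugar sensing and its hormones, 5 had a higher and 1 a lower mean log2 value with Que (median log2 fold change 0.13), and 0 had an unadjusted or adjusted limma p under 0.05. sug (sugarbabe), a transcription factor induced by dietary sugar, had 126 ± 9.46 RPKM in Que midguts and 115 ± 5.29 RPKM in DMSO midguts (SD, n = 4 each), and the log2 fold change came to 0.13 (SE 0.086, limma adjusted p = 0.946). bigmax, the partner of the glucose sensor Mondo, had 78.5 ± 16.1 and 78.4 ± 17.3 RPKM (log2 fold change 0.0063, limma adjusted p = 1.0). In 0 of these 6 genes did the groups lie apart.

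**Figure D5:**
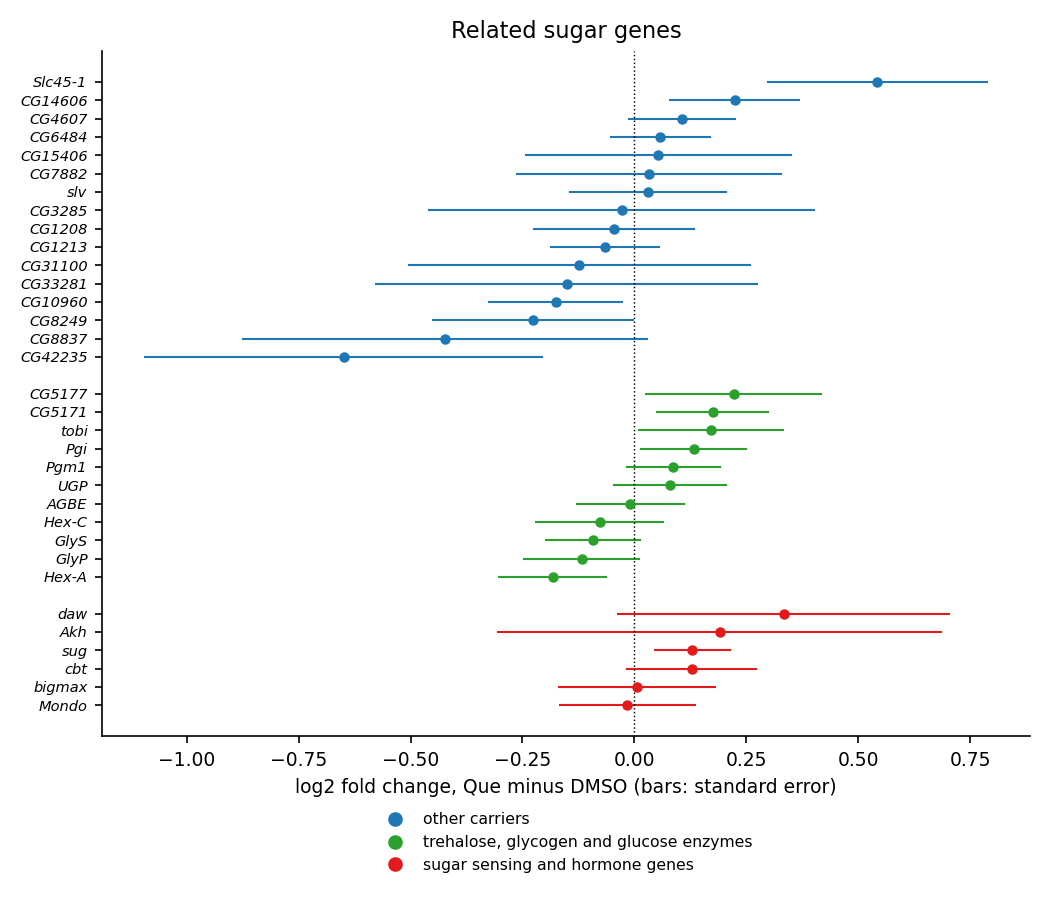
Log2 fold change between Que and DMSO (horizontal axis, bars the SE of limma) of the related genes tested, with 16 other carriers in blue, 11 enzymes in green and 6 sensing and hormone genes in red. Slc45-1 had the highest value, 0.54, and CG42235 the lowest, −0.65, and 0 of them had an adjusted p under 0.05.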

How the data were processed

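The authors trimmed reads with Trimmomatic 0.36, removed duplicates by building consensus reads, mapped these to the ISO1 genome with STAR 2.5.3a, counted them with featureCounts and deposited RPKM, without scaling between samples. Annotation release, strand setting and treatment of multiply mapped reads are not given in the sources used here. Multiplied by gene length, RPKM gave whole reads (within 0.01) for 100% of values. Such reads and their counting errors cover counting error only. Positions are those of the deposited table and equal those of RefSeq on Release 6 plus ISO1 MT for all 9 genes.

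log2(RPKM + 0.1) of the 13249 genes that averaged 0.1 RPKM or more was fitted with limma 3.58.1 in R 4.3.3 (trended empirical Bayes, two-sided, Benjamini-Hochberg), a fit tested on simulated data. Exact permutation and sign-flip tests used Python 3.11.15 and NumPy 2.4.6, with no p below 0.0286 for 4 against 4 samples. All 9 genes were named, and of the related lists the 2 of highest level and those with an unadjusted p under 0.05 or with groups apart. The genes and lists were chosen with earlier results of these data known. Of the list names, Glut3 matched no feature, CG7801 is an older name of Tret1-1, and CG42235, CG9657 and CG6723 were matched by synonym. Columns of the authors' own comparisons were not used. Alternatives were other pseudocounts (1 and 0.01), filters (a mean of 1 RPKM, or none), array weights, no trend, quantile normalization, median-of-ratios scaling, voom on genes averaging 10 reads, a loess correction for gene length within samples (span 0.5), the replicate block, and leaving out samples singly.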

Additional observations from a re-analysis of the deposited data

Results flagged for a closer look

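In 3 of 38 groups of 4 samples checked, 1 sample was far removed from the remaining 3, and chance alone would give about 1.9 such groups. For sut3 in the Que group, Que 3 had 0.599 RPKM against 0.874 to 0.911 RPKM in the others, a gap of 0.882 of the group's range. For the summed fat body markers in the Que group, Que 1 had 0.845 RPKM against 1.48 to 1.53 RPKM, a gap of 0.925. For the summed ovary markers in the DMSO group, DMSO 1 had 4.14 RPKM against 1.04 to 1.34 RPKM, a gap of 0.902. A cause of these gaps was not tested.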

How the results depend on the processing

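The count of genes past an adjusted p of 0.05 was 0 in the reported analysis, 2 without filtering, 3 without the trend, 2 with array weights and 0 to 3 with each sample left out (3 without DMSO 3). The 8 genes and the 8 related genes refitted under each alternative (Slc45-1, CG6484, CG4607, Hex-A, tobi, CG5171, sug and bigmax) were not among them, and 0 of the 8 reached an unadjusted p under 0.05 in any of 19 alternatives. At an unadjusted p under 0.05, 223 genes were higher and 256 lower, against 708 and 693 with array weights and 483 and 712 without Que 2. Over 149 alternative values of the 8 genes, 13 turned direction, all with a sample left out, and the smallest adjusted p was 0.674. With each sample left out, log2 fold changes ranged from −0.054 to 0.12 for Treh, −0.26 to 0.047 for Tret1-1, −0.21 to 0.29 for Tret1-2, −0.19 to 0.055 for sut3, −0.022 to 0.32 for Glut1, −0.47 to 0.0048 for Tps1, −0.0051 to 0.12 for CG6484 and −0.13 to 0.15 for bigmax, which was −0.034 with the length trend removed. The difference between the groups in the Tret1-1 to Tret1-2 ratio ranged from −0.49 to 0.041. The difference in level between Glut1 and Tps1 ranged from −0.043 to 0.18, and that between Tps1 and sut3 from −0.11 to 0.15, and was −0.0086 with a pseudocount of 0.01. The cause was not tested.

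Samples of the same replicate number deviated together for replicates 1 and 2 (correlation 0.486 and 0.281 over 9154 genes) but not for 3 and 4 (0.0678 and 0.0148), so the numbers were not taken as pairs. With the replicate number as a block, 0 genes had an adjusted p under 0.05, 473 were higher and 644 lower at an unadjusted p under 0.05, and the difference in the Tret1-1 to Tret1-2 ratio was −0.20 (exact p = 0.75). Depth limits Tret1-2, sut3 and sut4 most, with at most 25, 58 and 3 reads per sample.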

Other observations

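CG42235, a carrier of the sodium-coupled family that was singled out after its values were seen, had the lowest log2 fold change of the related genes, −0.65 (standard error 0.45, limma adjusted p = 0.946). It had 154 reads in DMSO 4 and 6 reads in Que 2, against 30 to 61 reads in the other samples. DMSO 4 and Que 2 were also the highest and the lowest sample for Tps1.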
